A study of Mus musculus with 8 samples.

Results

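The genes followed here belong to the antioxidant defence and were measured in keratinocytes of mice with and without Hmgb1, which encodes a chromatin protein that acts as an alarm signal outside the cell. They are 10 of the 24421 gene symbols in the deposited count tables, chosen by name as targets of the transcription factor NRF2 or as enzymes that remove reactive oxygen: Nqo1, Hmox1, Gclc, Gclm, Slc7a11, Txnrd1, Srxn1, Prdx1, Sod2 and Cat. All 10 had enough counts to be tested, among 13016 tested genes. RNA was sequenced in 8 libraries of keratinocytes from the skin of mice on a CBA x C57Bl/6J background. All 8 came from animals with the InvEE transgene, which expresses an activated MEK1 kinase from the involucrin promoter in suprabasal cells, and with floxed Hmgb1 alleles. The 4 control libraries were K5 Cre- and the 4 knockout libraries K5 Cre+, where keratin 5 promoter sequence drives Cre in basal keratinocytes, so an effect of Cre itself and of the loss of Hmgb1 cannot be told apart. Age, sex and treatment are not in the labels. Replicates are numbered 1 to 4 in each group without a statement that each is a separate mouse, and a p-value here reflects variation among libraries that may be technical.

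NRF2, encoded by Nfe2l2, is held at a low level by KEAP1, an adaptor that passes it to a CUL3 ubiquitin ligase. Oxidants and electrophiles modify cysteines of KEAP1, NRF2 then accumulates, pairs with a small MAF protein and binds antioxidant response elements near its targets. In skin the pathway is known for protecting keratinocytes from ultraviolet light, chemicals and the oxidants of wounds. Its targets make and use glutathione (Gclc, Gclm, Slc7a11), run the thioredoxin cycle (Txnrd1, Srxn1, Prdx1) and detoxify quinones and heme (Nqo1, Hmox1). Sod2 and Cat, which remove superoxide and hydrogen peroxide, also answer to other factors.

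Start site sequences are shown for the 4 genes whose knockout values all lay below the controls (Nqo1, Gclm, Slc7a11, Sod2). They are also shown for Srxn1 and Prdx1, which held a motif but whose groups overlapped. Txnrd1 likewise held a motif and had overlapping groups, but its sequence is not shown. The sequences shown come from RefSeq windows on GRCm38.p6, the assembly of mm10, and run 5′ to 3′ on the strand of the gene. Each starts 250 bases before a RefSeq start and stops before any exon that GENCODE annotates for the gene in that window. The start used for Gclm lies inside its RefSeq gene span, which begins at 122245487. The last printed bases of Gclm therefore fall within that span. The positions are chr8:107403207-107403455 (minus strand) for Nqo1, chr3:122245307-122245556 (plus) for Gclm, chr3:50443615-50443863 (minus) for Slc7a11, at a start inside its longest annotated span, chr17:13007589-13007816 (plus) for Sod2, chr2:152105274-152105515 (plus) for Srxn1 and chr4:116685349-116685543 (plus) for Prdx1. Capitals mark matches on either strand to the core of the antioxidant response element, TGACNNNGC, or to the AP-1 type site TGANTCA, where N is any base.
Nqo1: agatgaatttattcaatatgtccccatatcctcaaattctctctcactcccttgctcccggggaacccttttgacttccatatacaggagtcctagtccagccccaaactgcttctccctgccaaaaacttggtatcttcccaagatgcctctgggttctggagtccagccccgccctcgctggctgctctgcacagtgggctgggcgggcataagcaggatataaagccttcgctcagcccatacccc
Gclm: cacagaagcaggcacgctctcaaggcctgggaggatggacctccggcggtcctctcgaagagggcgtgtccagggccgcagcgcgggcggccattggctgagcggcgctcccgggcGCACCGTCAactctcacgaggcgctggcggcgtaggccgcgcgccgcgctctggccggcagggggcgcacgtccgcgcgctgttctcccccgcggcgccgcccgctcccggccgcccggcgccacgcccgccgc
Srxn1: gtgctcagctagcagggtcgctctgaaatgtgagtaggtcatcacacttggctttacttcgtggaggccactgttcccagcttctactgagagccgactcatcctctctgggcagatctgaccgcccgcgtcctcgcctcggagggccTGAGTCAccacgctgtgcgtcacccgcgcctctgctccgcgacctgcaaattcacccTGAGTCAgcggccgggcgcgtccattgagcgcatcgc
Slc7a11: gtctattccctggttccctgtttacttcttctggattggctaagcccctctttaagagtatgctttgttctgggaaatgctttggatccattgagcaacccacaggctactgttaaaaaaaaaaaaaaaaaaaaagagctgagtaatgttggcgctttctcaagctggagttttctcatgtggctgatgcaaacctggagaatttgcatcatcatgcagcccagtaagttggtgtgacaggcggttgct
Sod2: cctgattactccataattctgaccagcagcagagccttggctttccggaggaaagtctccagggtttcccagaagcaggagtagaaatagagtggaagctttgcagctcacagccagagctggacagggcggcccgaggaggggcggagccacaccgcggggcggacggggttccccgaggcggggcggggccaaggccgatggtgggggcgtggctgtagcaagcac
Prdx1: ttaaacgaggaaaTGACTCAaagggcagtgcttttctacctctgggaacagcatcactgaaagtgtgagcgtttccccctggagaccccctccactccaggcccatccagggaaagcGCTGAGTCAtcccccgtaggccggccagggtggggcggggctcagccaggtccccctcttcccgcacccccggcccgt

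Windows were found for 8 of the 10 genes, all but Hmox1 and Gclc, and the 250 bases before each start were searched. The element core was found in Gclm, in Prdx1 and in 1 of the 3 windows of Txnrd1, against 11.5% of all 27025 genes with such a window. The AP-1 type site was found at 2 places each in Srxn1 and Prdx1, against 7.82% of all genes, and the Prdx1 match to the element core, GCTGAGTCA, contains one of them. Of the 4 genes lower in every knockout library, only Gclm had a match to either motif in this window. A match is a run of letters and not a shown binding site.

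The library totals were 30506676 to 34229030 counts on genes, with no separation of the groups (exact two-sided permutation p = 0.486, n = 4 each). Hmgb1, the deleted gene, lay between 565 and 615 CPM (counts scaled to a fixed library size with TMM factors) in controls but between 113 and 126 CPM in knockouts (log2 fold change -2.32, adjusted p = 3.576e-07 by edgeR, SE 0.09). Keratinocyte markers, 8 of 8 detected, summed to 53525 to 63243 CPM in controls and 63549 to 69324 CPM in knockouts, with no overlap and with Krt10 called higher, and the part of this in the results was not tested. Markers of other cells were far lower: fibroblast genes summed to 3.41 to 23.99 CPM, leukocyte genes to 14.6 to 51.1 CPM and melanocyte genes to 5.81 to 7.501 CPM. Sebocyte genes summed to 5.69 to 9.16 CPM, and of 3 tested Scd3, a lipid desaturase, was called lower (log2 fold change -1.38, adjusted p = 0.0406 by edgeR), a change whose part in the results was not tested. Globin genes were at 0 in every library. Only control replicates 2 and 3 and knockout replicate 1 held Y-linked transcripts, 2 of 4 controls and 1 of 4 knockouts. Xist, an RNA of female cells, was at 0.224 to 4.90 CPM in these libraries and at 1282.5 to 2323 CPM in the others. Read from these transcripts, the sexes were not evenly split between the groups. The TMM factors of the groups did not overlap, at 1.02 to 1.06 in controls and 0.906 to 1.00 in knockouts.

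Of the 10 genes, Nqo1 and Sod2 fell in the knockout and none rose by edgeR's quasi-likelihood test, with a threshold of 0.05 on p-values adjusted by Benjamini-Hochberg over all tested genes. That is 2 of 10, where 8.87% of all tested genes were called in either direction and 4.54% were called lower. Over all genes 563 were called higher and 591 lower, a split that became 370 and 997 when only library totals were used for scaling and 460 and 723 with upper-quartile scaling. Both Nqo1 and Sod2 stayed called as lower under each of these scalings. With these 2, Gclm and Slc7a11 were lower in all 4 knockout libraries than in any control, although they missed the threshold. Over all tested genes, 17% had groups without overlap, 9% with the knockouts below the controls and 7.95% with them above. At an unadjusted p under 0.05 the count was 4 of 10, all lower in the knockout, against 26.2% of tested genes in either direction. DESeq2 called 0 of the 10 higher and 4 lower (Nqo1, Gclm, Slc7a11 and Sod2). Of all 13016 tested genes it called 1093 higher and 917 lower. By limma-voom 0 of the 10 were called higher and 2 lower, against 563 and 588 of all tested genes. The median log2 fold change of the 10 was -0.11, beside -0.02 for all tested genes. In bulk RNA, fewer cells of a type and less RNA per cell cannot be told apart.

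**Figure D1:**
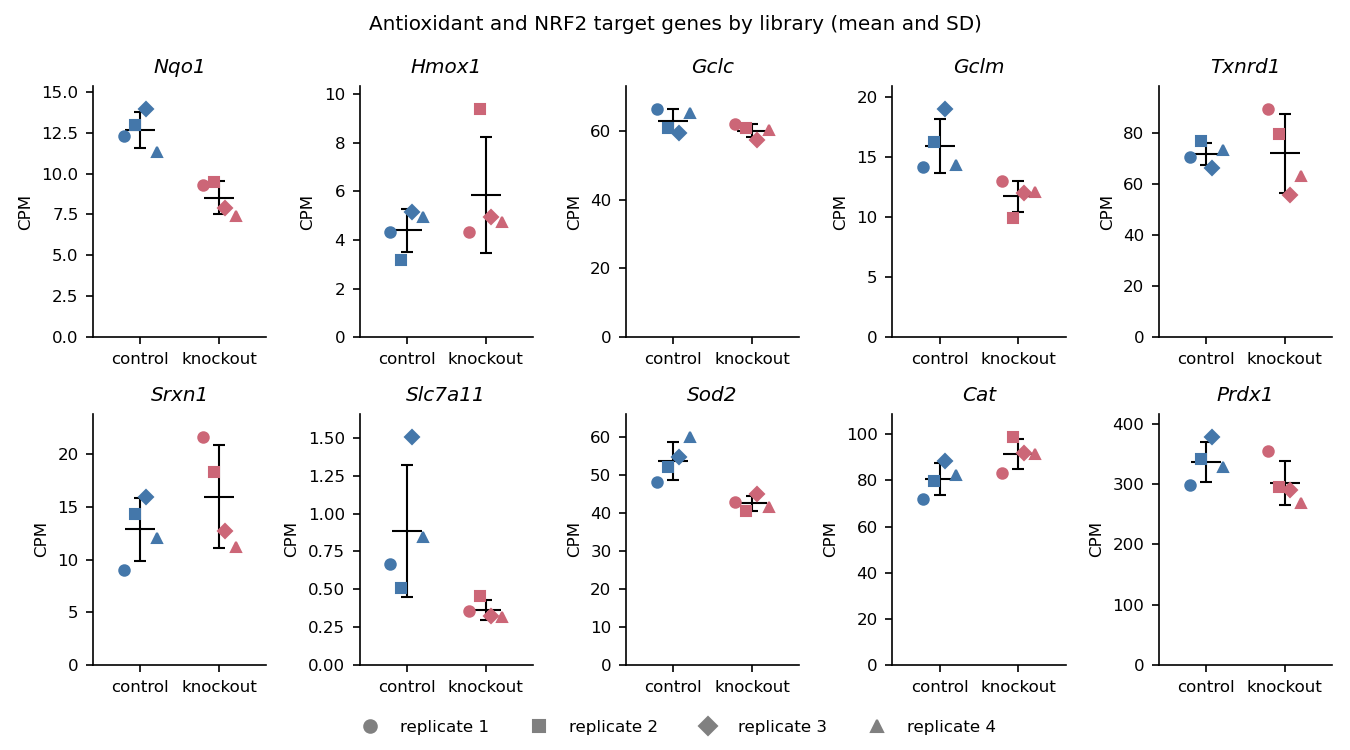
CPM of each of the 10 genes (y axes, linear and starting at 0) in the 4 control (blue) and 4 knockout (red) libraries, with symbols for replicate numbers and bars for mean and SD. Nqo1, Gclm, Slc7a11 and Sod2 have all knockout points below all control points, and Hmox1 has knockout replicate 2 alone at 9.40 CPM.

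**Figure D2:**
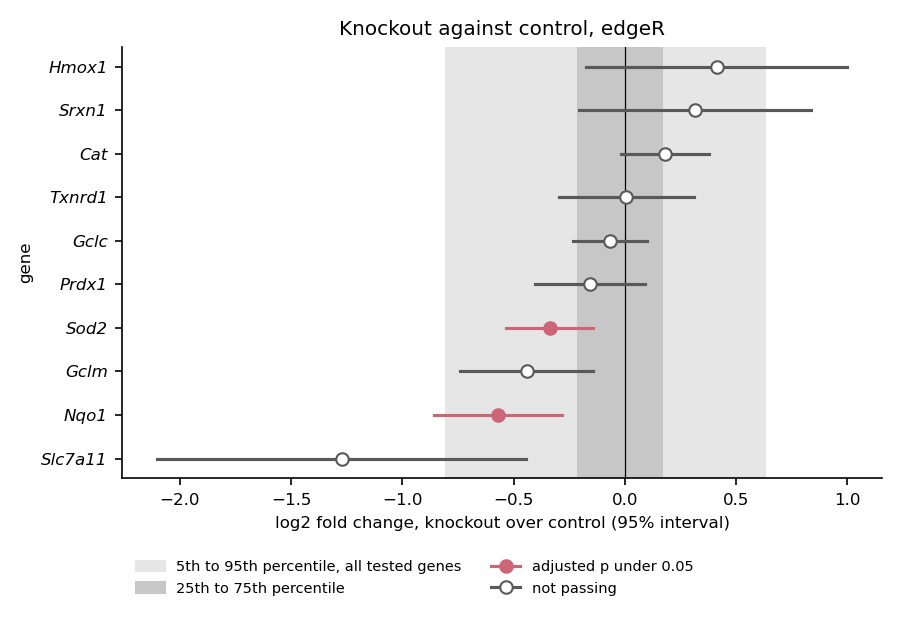
Log2 fold change of each gene (x axis, knockout over control) with its 95% interval from edgeR, over grey bands for the middle ranges of all 13016 tested genes. Nqo1 and Sod2 passed the test (filled), and the intervals of Gclm and Slc7a11 also lie below 0.

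Nqo1 encodes NAD(P)H quinone dehydrogenase, which reduces quinones by a pair of electrons and is the customary reporter of NRF2 activity (chromosome 8, 107388225 to 107403205, GRCm38.p6). Nqo1 measured 12.3, 13.0, 13.95 and 11.3 CPM in control replicates 1 to 4, and 9.27, 9.46, 7.92 and 7.42 CPM in knockout replicates 1 to 4. The lowest control stood above the highest knockout. The means were 12.6 ± 1.1 and 8.52 ± 1.00 CPM (SD, n = 4 each), 1.48-fold lower in the knockout (log2 fold change -0.57, SE 0.13, adjusted p = 0.0248 by edgeR). The fall was of like size in libraries with Y-linked transcripts (13.5 to 9.27 CPM, 2 controls and 1 knockout) and in those without (11.8 to 8.27 CPM, 2 controls and 3 knockouts), where the adjusted p was 0.174. Leaving out 1 library at a time, the call was lost without control replicate 2 or 3 or knockout replicate 2 or 4, with adjusted p-values of up to 0.0729 over the 8 fits.

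Hmox1 encodes heme oxygenase 1, which opens the heme ring to biliverdin, iron and carbon monoxide (chromosome 8, 75093618 to 75100593). Hmox1 measured 4.33, 3.16, 5.14 and 4.94 CPM in the 4 controls, and 4.33, 9.40, 4.95 and 4.74 CPM in the 4 knockouts. The knockout values lay among the controls except for replicate 2, the highest of all 8 libraries. The log2 fold change was 0.41 (95% interval -0.17 to 1.00, edgeR adjusted p = 0.356) and 0.09 without knockout replicate 2. The summed leukocyte markers of that library, 32.8 CPM, lay within the range of the other knockouts, 14.6 to 40.1 CPM. Any part of leukocytes in its Hmox1 value was not tested.

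The enzyme that commits glutamate and cysteine to glutathione is built from a catalytic subunit, Gclc, and a modifier subunit, Gclm, which raises its affinity for glutamate. Gclc (chromosome 9, 77754535 to 77794489) was at 66.4, 60.8, 59.5 and 65.1 CPM in the 4 controls, and 62.0, 60.8, 57.3 and 60.4 CPM in the 4 knockouts. The groups overlapped, and the interval of the log2 fold change, -0.23 to 0.10 around -0.07, was among the narrowest of the 10 (edgeR adjusted p = 0.617). Gclm (chromosome 3, 122245487 to 122267215) was at 14.2, 16.3, 19.0 and 14.3 CPM in the 4 controls, and 13.0, 9.95, 12.0 and 12.1 CPM in the 4 knockouts. All knockouts lay below all controls, with means of 15.96 ± 2.26 and 11.8 ± 1.29 CPM (SD, n = 4 each). The log2 fold change of -0.44 (SE 0.14) missed the threshold by edgeR (adjusted p = 0.0682) and passed it by DESeq2 (adjusted p = 0.0315). The annotated span of Gclm also holds a processed pseudogene on the same strand, Gm6061, and a transcript on the other strand, so its counts carry that uncertainty.

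Set against each other, the ratio of Gclm CPM to Gclc CPM was 0.214, 0.268, 0.320 and 0.220 in controls and 0.210, 0.164, 0.209 and 0.200 in knockouts. The ratio was lower in every knockout library than in any control, though knockout replicate 1 and control replicate 1 were close. The means were 0.256 ± 0.0495 and 0.196 ± 0.0219 (SD, n = 4 each), and the ratio was formed after the values of both genes were seen.

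Slc7a11 encodes xCT, the light chain of the exchanger that brings in cystine for glutathione synthesis (chromosome 3, 50364936 to 50499087). It was the scarcest of the 10, with 24, 16, 49 and 29 counts in controls and 10, 14, 10 and 10 in knockouts. On the CPM scale these were 0.670, 0.511, 1.51 and 0.847 against 0.358, 0.458, 0.323 and 0.316. The groups did not overlap, but control replicate 2 and knockout replicate 2 differed by only 2 counts before scaling. The span of Slc7a11 also holds Gm37498, an unverified transcript model on the same strand, so these few counts carry that uncertainty. The log2 fold change was -1.27 with a wide interval, -2.10 to -0.44 (edgeR adjusted p = 0.0606), and it was -0.89 without control replicate 3, the highest library. Melanocytes also use this exchanger for pigment. Their markers summed to 5.81 to 6.61 CPM in controls and 6.09 to 7.501 CPM in knockouts, and 0 of 3 tested passed. Any part of melanocytes in the Slc7a11 values was not tested. The heavy chain partner Slc3a2, a gene outside the 10 named after its values were seen, had means of 200 ± 19.98 CPM without and 237 ± 54.6 CPM with the deletion (SD, n = 4 each, adjusted p = 0.346 by edgeR).

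Txnrd1 encodes the cytosolic thioredoxin reductase, a selenoprotein that returns electrons from NADPH to thioredoxin (chromosome 10, 82833951 to 82897724). Txnrd1 measured 70.5, 76.8, 66.4 and 73.3 CPM in the 4 controls, and 89.5, 79.6, 55.8 and 63.2 CPM in the 4 knockouts. Knockout replicates 1 and 2 stood above all controls and replicates 3 and 4 below all of them, so the mean hardly moved (log2 fold change 0.01, 95% interval -0.30 to 0.31, edgeR adjusted p = 0.984). The SD was 4.39 CPM in controls and 15.3 CPM in knockouts. Reads of Eid3, a gene annotated on the same strand within the span of Txnrd1, could be confused with its own.

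Srxn1 encodes sulfiredoxin, which restores peroxiredoxins that hydrogen peroxide has over-oxidised (chromosome 2, 152105524 to 152111376). Srxn1 measured 9.02, 14.4, 15.99 and 12.1 CPM in the 4 controls, and 21.7, 18.3, 12.7 and 11.2 CPM in the 4 knockouts. As for Txnrd1, knockout replicates 1 and 2 stood above all controls. Replicates 3 and 4 lay within the control range, where those of Txnrd1 lay below it. The log2 fold change was 0.31 (95% interval -0.21 to 0.83, edgeR adjusted p = 0.433).

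Prdx1 encodes peroxiredoxin 1, an abundant thiol peroxidase and the enzyme that sulfiredoxin repairs (chromosome 4, 116685599 to 116700000). Prdx1 measured 299, 341, 379 and 328 CPM in the 4 controls, and 354, 295, 291 and 268 CPM in the 4 knockouts. Knockout replicate 1 was again the highest of its group and lay within the controls, while the other 3 lay below them. The log2 fold change was -0.16 (95% interval -0.40 to 0.09, edgeR adjusted p = 0.403).

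Sod2 encodes the manganese superoxide dismutase of mitochondria, which turns superoxide into hydrogen peroxide and is also induced by inflammatory signals (chromosome 17, 13007839 to 13018119). Sod2 measured 48.1, 52.1, 54.7 and 60.1 CPM in the 4 controls, and 43.0, 40.5, 45.04 and 41.6 CPM in the 4 knockouts. Every knockout lay below every control. The means were 53.8 ± 5.02 and 42.5 ± 1.95 CPM (SD, n = 4 each), 1.26-fold lower in the knockout (log2 fold change -0.34, SE 0.09, adjusted p = 0.0406 by edgeR). Libraries with Y-linked transcripts went from 53.4 to 43.0 CPM and those without from 54.1 to 42.4 CPM. The adjusted p was 0.0534 with a term for those transcripts and 0.198 in the 5 libraries without them. The call was made in 2 of 8 fits with a library left out, those without control replicate 1 and without knockout replicate 3, and adjusted p-values reached 0.125 in the other 6.

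Cat encodes catalase, the peroxisomal enzyme that breaks down hydrogen peroxide (chromosome 2, 103453904 to 103485153). Cat measured 71.8, 79.9, 88.7 and 82.5 CPM in the 4 controls, and 83.3, 99.0, 91.8 and 91.6 CPM in the 4 knockouts. Knockouts 2, 3 and 4 stood above all controls and replicate 1 among them. The log2 fold change was 0.18 (95% interval -0.02 to 0.38, edgeR adjusted p = 0.233), the opposite sign to that of Sod2, and the difference between the genes was not tested.

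The 10 genes did not share 1 order of libraries. Control replicate 3 was the highest control for 7 of the 10 genes, and knockout replicates 1 and 2 were the highest knockouts for 5 and 4. Knockout replicate 4 was the lowest knockout for 4 genes. The knockouts with high Txnrd1 and Srxn1, replicates 1 and 2, also had the lower TMM factors, 0.906 and 0.950, against 1.00 and 0.999 in replicates 3 and 4. Summed fibroblast markers ran the same way, at 23.99, 10.7, 4.82 and 3.41 CPM in knockout replicates 1 to 4, and Dcn was called higher among 4 tested markers. The part of either in the result was not tested.

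**Figure D3:**
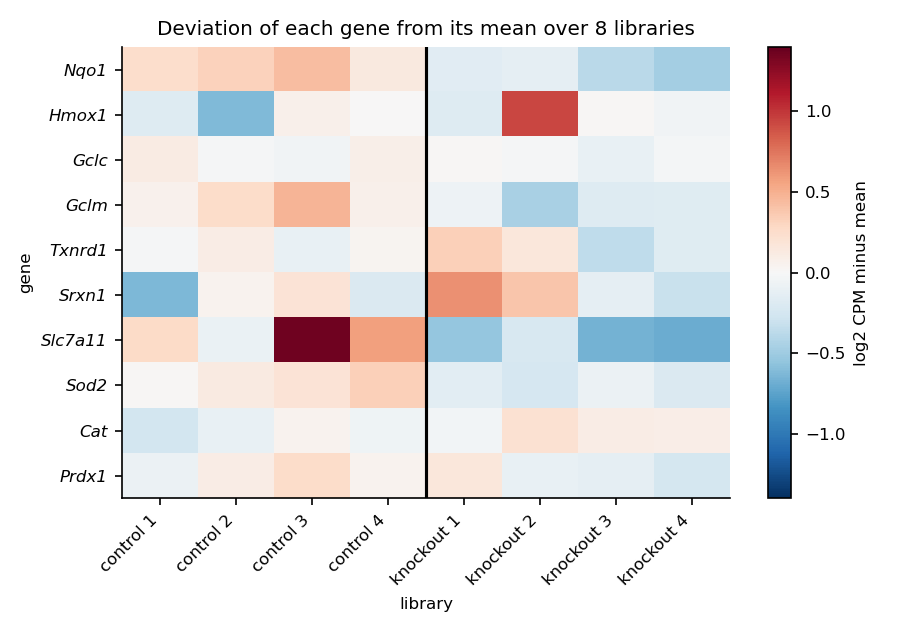
Deviation of each gene (rows) from its own mean log2 CPM in each library (columns), in log2 units, with controls left of the line and knockouts right of it. Nqo1, Gclm and Sod2 are above their means in all controls and below in all knockouts, whereas Txnrd1 and Srxn1 differ among the knockouts.

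Levels between genes were compared as CPM per kilobase of merged GENCODE exons. In controls Prdx1 was the highest at 111 ± 10.9 CPM per kb (SD, n = 4), followed by Cat at 30.9 ± 2.68, Gclc at 16.7 ± 0.892, Txnrd1 at 10.1 ± 0.619 and Nqo1 at 8.14 ± 0.710 CPM per kb. Each of these stood apart from the next over the 4 control libraries. Sod2 at 5.37 ± 0.502 and Srxn1 at 4.56 ± 1.07 CPM per kb overlapped each other, as did Gclm at 2.54 ± 0.360 and Hmox1 at 2.51 ± 0.508 CPM per kb. Slc7a11 was last at 0.0635 ± 0.0315 CPM per kb. Merged exons include long untranslated ends that a short transcript may lack, so the order holds for these lengths.

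Around the 10 genes, 157 others of the antioxidant network were listed in 9 groups, and 137 were tested. Of these, 4 rose, 9 fell and 124 did not pass, or 9.49% called against 8.87% of all tested genes. Their median log2 fold change was -0.01. The share called was therefore near that of the whole data set.

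Among 16 regulators of NRF2, Fbxw11 rose and 15 did not pass (median log2 fold change 0.01), or 6.25% called against 8.87% of all tested genes. Fbxw11, a ubiquitin ligase adaptor that can mark NRF2 for removal, went from 105 ± 7.35 to 145 ± 24 CPM (SD, n = 4 each, edgeR adjusted p = 0.0376). It kept the call in 2 of 8 fits that left out a library, those without knockout replicate 3 or 4. At an unadjusted p under 0.05 there were 4, all higher in the knockout, or 25%, against 26.2% of all tested genes in either direction. The next 4 genes, NRF2 itself, its inhibitor, its competitor and Sqstm1, fall outside the naming rule and were chosen after their values were seen. Nfe2l2 was at 111 ± 17.8 and 96.4 ± 16.9 CPM (log2 fold change -0.21, edgeR adjusted p = 0.395). Keap1 was at 70.2 ± 3.36 and 72.5 ± 16.1 CPM, with knockout replicates 1 and 2 at 53.4 and 65.6 CPM, below all controls, and replicates 3 and 4 at 88.8 and 82.4 CPM, above them. The repressor Bach1 was at 211 ± 46.0 and 213 ± 62.1 CPM. Sqstm1, the autophagy receptor that can sequester KEAP1, was at 220 ± 61.1 and 379 ± 112 CPM (edgeR adjusted p = 0.0855). In knockout replicates 1 to 4, Nfe2l2 was at 113, 109, 80.1 and 83.7 CPM and Bach1 at 285, 244, 158 and 164 CPM. Sqstm1 was at 454, 492, 309 and 260 CPM in the same order. Replicates 1 and 2 thus stood above 3 and 4 for Nfe2l2, Bach1 and Sqstm1, and below them for Keap1. Any link of these values to those of Txnrd1 or Srxn1 was not tested.

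Of 20 tested genes of glutathione synthesis and use, Chac1 rose, Gsr and Gpx8 fell and 17 did not pass (median log2 fold change 0.00). The share called was 15% against 8.87% of all tested genes. At an unadjusted p under 0.05 there were 4 genes, or 20% against 26.2% of all tested genes. Chac1 breaks glutathione down, and its mean moved from 1.99 ± 0.248 to 5.88 ± 2.69 CPM (SD, n = 4 each, log2 fold change 1.56, edgeR adjusted p = 0.0137). Its 4 knockout values were 9.38, 6.45, 3.17 and 4.51 CPM, all above the highest control of 2.35 CPM. Gsr, the reductase that regenerates glutathione, fell from 48.5 ± 4.67 to 35.04 ± 5.18 CPM (edgeR adjusted p = 0.0344) and kept the call in 3 of 8 fits with a library left out, those without control replicate 1 or 3 or knockout replicate 3. Gpx8, a peroxidase of the endoplasmic reticulum, fell from 9.40 ± 0.822 to 5.50 ± 0.371 CPM (edgeR adjusted p = 0.00761). Calls for Chac1 and Gpx8 held in 8 of 8 such fits.

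Of 22 tested glutathione transferases, which join glutathione to electrophiles, 3 fell, 0 rose and 19 did not pass by edgeR (median log2 fold change -0.12). The share called was 13.6% against 8.87% of all tested genes. At an unadjusted p under 0.05 there were 10, or 45.5% against 26.2% of all tested genes. DESeq2 called 1 higher and 3 lower, where it called 1093 higher and 917 lower of all 13016 tested genes. The mean of Gstm5 moved from 29.8 ± 4.55 to 18.9 ± 1.45 CPM (SD, n = 4 each, edgeR adjusted p = 0.0121) and was called in all 20 alternative fits. Gstm1 went from 84.5 ± 15.7 to 54.5 ± 9.09 CPM and the microsomal enzyme Mgst2 from 5.90 ± 1.95 to 2.96 ± 0.619 CPM. Leaving out a library, Gstm1 was called in 2 of 8 fits, those without control replicate 3 or knockout replicate 1, and Mgst2 in 1, that without control replicate 4. Genes of the Gstm cluster are close copies, so reads may be split among them.

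In the thioredoxin and peroxiredoxin group, 2 of 19 tested genes fell and 17 did not pass, or 10.5% called against 8.87% of all tested genes. By edgeR or limma-voom 0 were called higher, and by DESeq2 1, where DESeq2 called 1093 of all 13016 tested genes higher. At an unadjusted p under 0.05 there were 5 in either direction, or 26.3% against 26.2% of all tested genes. Both shares were near those of the whole data set. Txnrd3, a reductase best known from testis, fell from 28.7 ± 3.72 to 20.3 ± 2.91 CPM (SD, n = 4 each, edgeR adjusted p = 0.0414). Msrb2, a mitochondrial methionine sulfoxide reductase, fell from 1.503 ± 0.365 to 0.739 ± 0.150 CPM (edgeR adjusted p = 0.042). Msrb2 was called in 0 of 8 fits with a library left out, and Txnrd3 in 2, those without control replicate 3 or knockout replicate 1.

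Among 21 tested genes of conjugation, carbonyl reduction and export, Abcc1 and Trp53inp1 rose, Ugdh and Abcc5 fell and 17 did not pass (median log2 fold change -0.22). The share called was 19% against 8.87% of all tested genes. At an unadjusted p under 0.05 there were 11, or 52.4% against 26.2% of all tested genes, the highest share of the 9 groups. Abcc1, an exporter of glutathione conjugates, rose from 205 ± 14.5 to 283 ± 27.0 CPM (SD, n = 4 each, edgeR adjusted p = 0.0174). It lost the call without control replicate 2 or knockout replicate 2. Ugdh, which makes the sugar donor of glucuronidation, fell from 66.6 ± 2.27 to 51.3 ± 2.38 CPM (edgeR adjusted p = 0.0138) and lost the call without knockout replicate 2. The related exporter Abcc5 fell from 189 ± 10.3 to 151 ± 11.6 CPM and was called in 0 of 8 fits with a library left out. Trp53inp1, a p53-induced gene that is no conjugating enzyme, rose from 90.6 ± 13.7 to 160 ± 49.5 CPM with groups that overlapped, and was called in 2 of 8, those without knockout replicate 3 or 4.

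The other 4 groups had no gene past the edgeR threshold, which 8.87% of all tested genes passed. Among 8 tested superoxide dismutases and partners, 1 gene was under an unadjusted p of 0.05, and 1 was called by DESeq2. Of 12 tested genes of NADPH supply these counts were 2 and 1, of 11 tested genes of heme and iron handling 2 and 1, and of 8 tested genes of oxidant production 3 and 0. In that order the unadjusted shares were 12.5%, 16.7%, 18.2% and 37.5%, against 26.2% of all tested genes. Over all 13016 tested genes DESeq2 called 2010 and limma-voom 1151. limma-voom called 0 in each of these groups. Their most abundant members were Mt2, a metallothionein, at 607 ± 139 and 760 ± 208 CPM in controls and knockouts, and Ucp2, a mitochondrial carrier, at 346 ± 37.4 and 377 ± 49.6 CPM. Tkt of the pentose phosphate pathway was at 280 ± 29.7 and 295 ± 42.8 CPM and Mthfd1 of folate metabolism at 137 ± 4.35 and 117 ± 10.4 CPM. The ferritin chains Fth1 and Ftl1 were at 857 ± 40.3 and 888 ± 121 CPM and at 190 ± 17.5 and 175 ± 26.6 CPM (SD, n = 4 each). Rac1, a GTPase of oxidase complexes, was at 407 ± 27.8 and 480 ± 43.8 CPM, and Xdh, xanthine dehydrogenase, at 108 ± 36.9 and 101 ± 5.59 CPM.

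**Figure D4:**
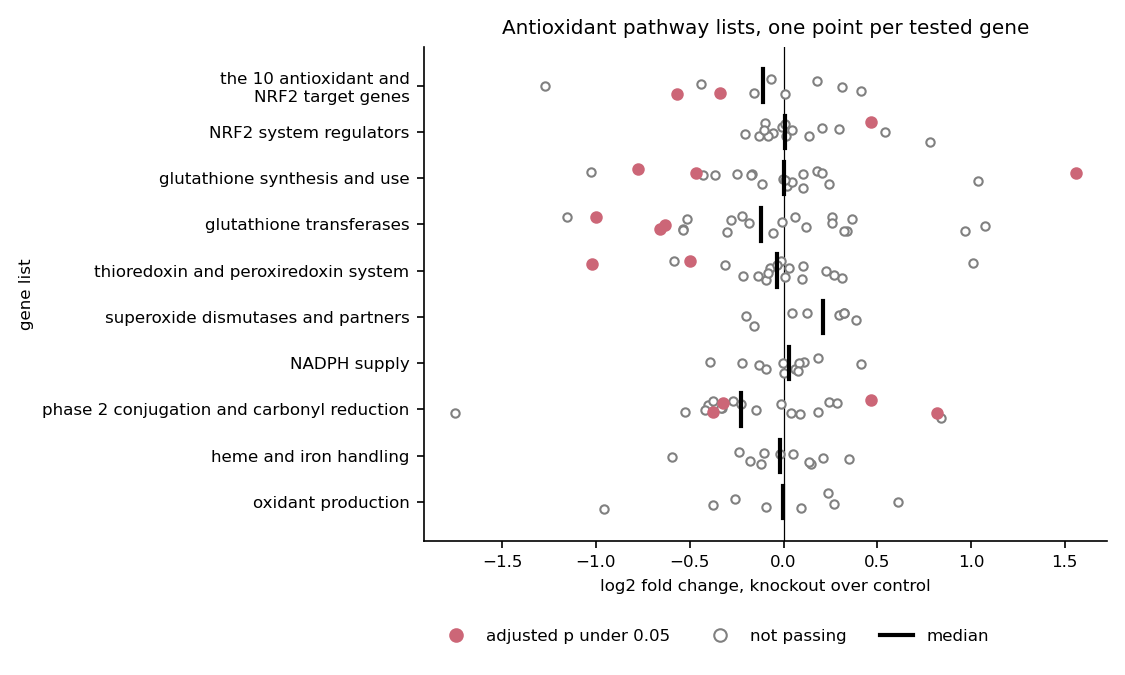
Log2 fold change (x axis, knockout over control) of each tested gene in the 10-gene set and the 9 pathway groups (rows), with filled points for an adjusted p under 0.05 and black bars for medians. Group medians lie between -0.22 and 0.21, and called genes are found on both sides of 0.

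Genes outside the 10 whose pattern over the 8 libraries came nearest to those of the 3 lowest p-values were sought by the root mean square distance of centred log2 CPM, among 11792 genes at 1 CPM or more. For Nqo1, Flot1 was among these (distance 0.0826, against a median of 0.367 over all candidates). For Sod2 they were C2cd2l (0.0532) and Thra (0.0558), against a median of 0.276. For Slc7a11 they were Col11a2 (0.195) and Gusb (0.207), against a median of 0.690. The distances describe these libraries and carry no test.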

How the data were processed

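RNA of skin keratinocytes was read from 8 deposited tables of unnormalized whole-number read counts, 1 for each gene symbol. The submitters' processing notes list TopHat2 2.1.0, Trimmomatic 0.35, SAMtools 0.1.18 and FastQC 0.11.4, with mm10 as the build. Strand setting, annotation and counting tool are not given in the sources used here. Closing lines of each table, left out here, held 15.7 to 21.7% of reads outside genes and 0.918 to 1.11% ambiguous reads. Totals over genes were 30506676 to 34229030 counts, and groups came from the sample titles.

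Genes were filtered with filterByExpr and scaled by TMM. The test was edgeR's robust quasi-likelihood test with genotype as the only term, with Benjamini-Hochberg adjustment over 13016 genes and a threshold of 0.05. CPM use TMM-scaled sizes, log2 CPM a prior count of 2, and 95% intervals the moderated degrees of freedom. The versions were DESeq2 1.42.0, limma 3.58.1 and edgeR 4.0.16 under R 4.3.3, and the steps were tested on simulated data. The alternatives were other tools, scalings and filters, a block for the replicate number, dispersion without the robust option, a term for Y-linked transcripts or the 5 libraries without them (under 1000 counts over 4 genes), and each library left out. The 10 genes, the lists and the tests were chosen with earlier results of these data known. All 10 and Hmgb1 are named, and from each list up to 4 called genes by smallest adjusted p, or otherwise the 2 most abundant. For the 3 genes of smallest p, the 2 of nearest pattern are named, except 1 that is not reported here.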

Additional observations from a re-analysis of the deposited data

Results flagged for a closer look

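In groups of 4 libraries, 64 sets of values were checked for a library far from the other 3, of which chance flags about 1 in 20, and 2 were found. Hmox1 in knockout replicate 2 was at 9.40 CPM, where the other knockouts were at 4.33 to 4.95 CPM. Xdh in control replicate 3 was at 163 CPM, where the other controls were at 81.7 to 95.3 CPM. Control replicate 3 was also the highest control for 7 of the 10 genes. These were Slc7a11, Nqo1 and Gclm, and also Hmox1, Srxn1, Cat and Prdx1, whose groups overlapped.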

How the results depend on the processing

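The counts depended on the tool and libraries. Members called lower, 2 in the main test, were 4 by DESeq2 or with library totals only, 1 with no filter on low counts or with a term for Y-linked transcripts, 0 among libraries lacking Y-linked transcripts, and 0 to 2 leaving out each library in turn. Members called higher were 0 throughout. The 1154 genes called (563 higher, 591 lower) became 2010 by DESeq2 (1093 and 917), 1912 by limma-voom with quality weights (955 and 957) and 383 among libraries lacking Y-linked transcripts (141 and 242). With library totals only they were 370 higher and 997 lower, and upper-quartile scaling gave 460 and 723. Leaving out 1 library gave 462 to 1247 genes, 200 to 678 higher and 262 to 569 lower. Pathway genes called, 13, were 24 by DESeq2, 24 with quality weights, 21 with library totals, 3 without Y-linked libraries and 3 to 10 leaving out 1 library. The median log2 fold change of the 10 stayed within -0.17 and -0.08 in the fits that left out 1 library. With library totals only it was -0.22. With the replicate number as a replicate block, 723 genes were called (375 higher, 348 lower), with 0 members and 8 pathway genes. Same-numbered libraries correlated at -0.23 to -0.05 in their deviations, no library best with its own number, so the numbers were not taken to pair libraries. The deposited table of knockout replicate 4 carries another number than its title, which leaves that number in doubt for the block and for these correlations. Among Hmgb1, the 10 genes and the named pathway genes, none with a call reversed its sign in an alternative, and Txnrd1 took either sign (9 positive, 11 negative of 20). Fits with fewer libraries also had fewer residual degrees of freedom. The cause of the changes was not tested for any alternative. Library totals moved the median of all genes to -0.13.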
